A study of Mus musculus with 366 samples.

Results

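Sympathetic neuron genes were followed across the aortas of female mice, each mouse measured on its own array. The genes were chosen by name, with earlier results of these data known. They were Th, Ddc, Dbh, Slc6a2, Slc18a2, Chga, Chgb, Nefl and Nefm, 9 in all. The array annotation names 17097 genes by a probe set of 1 symbol. Of the 9 genes, 8 had such a probe set, and the one with the highest mean was read where a gene had several. The probe set for Slc18a2 is shared with Pdzd8 and is given apart. Each mouse was the F1 offspring of an inbred strain of the Hybrid Mouse Diversity Panel (HMDP) and a C57BL/6J parent carrying human APOE-Leiden and CETP, transgenes that raise plasma cholesterol. All mice were 24 weeks old, after 8 weeks of chow and then 16 weeks of Western diet, so no group was free of the transgenes or the diet. The strains numbered 101, with up to 8 mice each (median 4), and 95 of them had 2 or more mice. The progenitor groups compared were the F1 of A/J (3 mice), BALB/cJ (4), C3H/HeJ (8) and DBA/2J (5), each against mice labelled C57BL/6J (6). Every F1 carries one C57BL/6J genome, so that F1 groups differ in genotype only through the other parent. Aortas were taken whole from the arch to the middle of the abdomen and stripped of surrounding fat, per the methods of the study.

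Noradrenergic sympathetic neurons sit in ganglia outside the vessel and send axons into the adventitia of arteries. TH turns tyrosine into DOPA, the rate-limiting step of catecholamine synthesis, DDC makes dopamine from DOPA, the vesicular transporter encoded by Slc18a2 loads dopamine into vesicles, and DBH turns it into noradrenaline there. The transporter encoded by Slc6a2 takes released noradrenaline back up, the granins CHGA and CHGB are carried in the dense core of secretory vesicles, and NEFL and NEFM are the light and medium neurofilament subunits of the axon. Axons hold little of the mRNA of their neurons, most of which lies in the cell bodies. In a whole aorta, fewer cells of a type and less RNA per cell cannot be told apart.

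The sequences before the starts of 4 of these genes are shown. They stand at the first and last steps of the pathway (Th, Dbh) and in its vesicles (Chga, Chgb). They are also those, of the 6 genes with such a sequence at hand, in which a searched motif was found. Each is the 250 bases before the annotated start of the gene in the RefSeq annotation of GRCm38.p6, written 5′ to 3′ on the strand of the gene. Capitals mark 3 motifs searched on both strands: TGACGTCA, the cAMP response element, which reads the same on both strands; TGACGTAA, which shares its first 6 letters; and CAATTAG, which holds the ATTA core bound by many homeodomain factors.
Th, chr7:142899996-142900245, minus strand: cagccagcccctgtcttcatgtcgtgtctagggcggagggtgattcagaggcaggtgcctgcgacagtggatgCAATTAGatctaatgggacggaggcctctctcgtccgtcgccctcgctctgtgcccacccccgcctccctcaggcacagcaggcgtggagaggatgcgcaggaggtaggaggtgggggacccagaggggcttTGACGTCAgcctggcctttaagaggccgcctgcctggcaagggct
Dbh, chr2:27165257-27165506, plus strand: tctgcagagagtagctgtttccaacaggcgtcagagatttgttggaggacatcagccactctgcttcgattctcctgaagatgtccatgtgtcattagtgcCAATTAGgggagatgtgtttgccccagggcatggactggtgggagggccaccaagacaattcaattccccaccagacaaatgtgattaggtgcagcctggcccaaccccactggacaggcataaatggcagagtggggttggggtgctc
Chga, chr12:102554691-102554940, plus strand: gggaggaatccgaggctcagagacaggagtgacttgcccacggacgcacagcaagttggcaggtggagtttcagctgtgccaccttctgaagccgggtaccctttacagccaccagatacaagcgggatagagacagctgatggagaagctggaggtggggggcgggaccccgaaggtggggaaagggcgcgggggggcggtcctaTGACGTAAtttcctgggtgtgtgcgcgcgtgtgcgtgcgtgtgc
Chgb, chr2:132781392-132781641, plus strand: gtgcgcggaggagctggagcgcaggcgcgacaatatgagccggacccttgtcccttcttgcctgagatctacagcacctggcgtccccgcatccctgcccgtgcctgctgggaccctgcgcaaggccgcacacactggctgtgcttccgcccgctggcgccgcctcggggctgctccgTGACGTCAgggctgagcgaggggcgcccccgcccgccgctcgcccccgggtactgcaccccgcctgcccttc

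Counting back from the start of the gene, TGACGTCA lay at -45 to -38 before Th and at -72 to -65 before Chgb, and TGACGTAA lay at -44 to -37 before Chga. CAATTAG lay at -177 to -171 before Th and at -149 to -143 before Dbh. Of 32851 windows of this length before annotated starts, 1.55% held TGACGTCA, 0.447% held TGACGTAA and 1.77% held CAATTAG. Windows were given for 6 of the 9 genes, and neither of the 2 windows of Ddc nor that of Slc18a2 held any of these letters. A match is a description of these letters only.

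The genes lie on different chromosomes for the most part. In GRCm38.p6, Th spans chr7:142892779-142899995, Ddc chr11:11814101-11898144, Dbh chr2:27165507-27183204 and Slc6a2 chr8:92960470-93001667. Chga spans chr12:102554941-102565027 and Chgb chr2:132781642-132795079. Nefl, at chr14:68083863-68089095, and Nefm, at chr14:68119545-68125004, are neighbours. Array values are RMA log2 intensities, and levels of different probe sets cannot be set against each other as amounts.

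The arrays as a whole were alike in scale, with medians between 3.17 and 3.40 on the log2 scale. Because all mice were female, the 11 probe sets of 6 Y-linked genes have no target, and they give the signal of a probe set without its transcript: a median of 2.47 and a highest value of 3.90 over all arrays. That highest value is used below as a background mark. Markers of the labelled tissue had mean log2 levels per array of 5.43 to 9.76 over 8 smooth muscle genes and 6.35 to 8.20 over 10 endothelial genes. Adipocyte genes (7 measured) averaged 10.02 to 11.1 and brown adipocyte genes (8 measured) 9.98 to 11.6 per array. Every array therefore carried adipocyte transcripts, although surrounding fat was stripped from the aortas. Hepatocyte genes ran from 3.25 to 10.1 per array and striated muscle genes from 3.03 to 12.4, so some aortas carried transcripts of liver and skeletal muscle. Alb, the serum albumin gene of hepatocytes, was above the background mark on 44 arrays, and the strain, progenitor and within-strain tests by limma were also made without them.

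Each of the 8 genes lay at or below the background mark in most mice and above it in a minority. How far above differed: the highest value was 2.51-fold over the mark for Chga and 138-fold for Slc6a2. Th had a lowest, median and highest log2 level of 2.28, 2.82 and 7.93, and was above the background mark on 87 arrays (23.8% of all). Ddc had 2.19, 2.92 and 9.36, with 132 arrays (36.1%) above the mark. Dbh had 2.51, 3.33 and 8.03, with 108 arrays (29.5%) above it. For each of these enzymes the median mouse lay below the mark, while the mouse at the 90th percentile lay at 5.98 for Th, 7.65 for Ddc and 5.88 for Dbh. The highest mouse lay 16.3-fold above the mark in intensity for Th, 44.1-fold for Ddc and 17.5-fold for Dbh, and no fold was taken against values below it.

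The transporters had the same shape. Slc6a2 ran from 2.56 through a median of 3.76 to 11.01, which is 138-fold above the mark, and was above the mark on 171 arrays (46.7%). The probe set shared by Slc18a2 and Pdzd8 ran from 2.33 through 2.93 to 7.90, with 91 arrays above the mark. How much of that signal comes from either gene is not known.

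Of the granins, Chgb ran from 2.42 through 2.98 to 6.85, with 71 arrays (19.4%) above the mark. Chga ran from 2.34 through 2.97 to 5.22, with 26 arrays (7.10%) above it. Of the neurofilament subunits, Nefl ran from 1.99 through 2.41 to 8.13, with 79 arrays (21.6%) above the mark. Nefm ran from 2.03 through 2.66 to 6.84, with 42 arrays (11.5%) above it. Other probe sets for the same genes followed the chosen one to unequal degrees: r was 0.93 and 0.77 for Dbh, 0.96 for Nefl and 0.85, 0.64 and 0.35 for Slc6a2. Those of Slc6a2 reached highest values of 6.28, 4.31 and 4.14 in that order, against 11.01 for the chosen one. The fold and array count given for Slc6a2 thus rest on the chosen probe set. For the second Ddc probe set, which ran only from 2.20 to 3.10, r was 0.06.

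High values fell on the same arrays. No gene of the 8 was above the background mark on 194 arrays, and all 8 were on 22. Every one of the 87 arrays with Th above the mark also had Dbh, Slc6a2 and Ddc above it, which is 80.6% of the Dbh, 50.9% of the Slc6a2 and 65.9% of the Ddc arrays. Of the same 87 arrays, 78 had Nefl, 70 had Chgb, 42 had Nefm and 26 had Chga above the mark. The arrays with Chga or Nefm above the mark all lay within those 87.

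**Figure D1:**
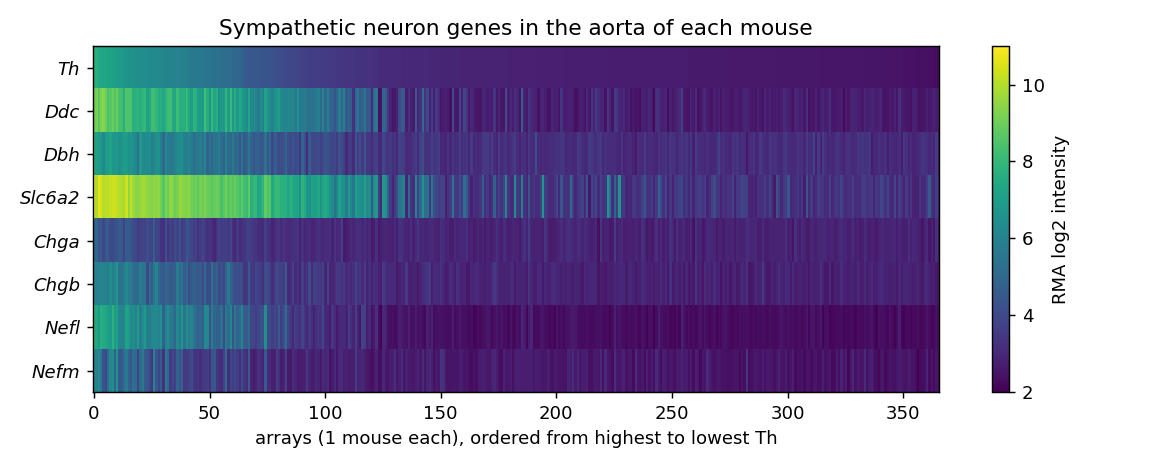
RMA log2 intensity (colour) of the 8 genes (rows) on each array (columns, 1 mouse each), ordered from highest to lowest Th. The bright block at the left is shared by all rows, with 171 arrays above the background mark of 3.90 in Slc6a2 and 26 arrays in Chga.

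The array with the most Th came from a BXD48/RwwJ F1 mouse (replicate 1), with log2 levels of 7.93 for Th, 9.09 for Ddc, 8.03 for Dbh, 11.01 for Slc6a2, 5.22 for Chga, 6.85 for Chgb, 8.13 for Nefl and 6.84 for Nefm. That mouse also held the highest value of every gene but Ddc. The next 4 by Th were BXD6/TyJ replicate 4 (7.69), BXA24/PgnJ replicate 3 (7.35), KK/HlJ replicate 1 (7.29) and BXA14/PgnJ replicate 2 (7.28), the last of which had the highest Ddc, 9.36. These 5 mice came from 5 strains.

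Mice of the same strain differed widely. In the BXD48/RwwJ F1, Th ran from 2.50 to 7.93, in the BXD6/TyJ F1 from 2.44 to 7.69 and in the BXA24/PgnJ F1 from 2.57 to 7.35, among 4 mice each. Over the 95 strains with 2 or more mice, the median range of Th within a strain was 1.84 on the log2 scale, and 45 strains had a range over 2. Of these 95 strains, 39 had no mouse with Th above the background mark, 55 had some, and CXB7/ByJ had all. Litters, cages and dissections are not given in the labels, so whether mice with high values shared one was not tested.

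By strain mean, Th was highest in the CXB7/ByJ F1 (5.92, with 4.38, 5.99, 6.21 and 7.12 in its 4 mice), the C3H/HeJ F1 (5.71) and the KK/HlJ F1 (5.65, with 2.65, 5.63, 7.01 and 7.29). It was lowest in the BXD84/RwwJ F1 (2.45, from 2.38 to 2.52 in 4 mice), the AXB10/PgnJ F1 (2.47, with 2.35 and 2.59) and the AKR/J F1 (2.48, from 2.30 to 2.68 in 4 mice). The mice of the highest strains spread over each other, and neighbours in this order were not tested against each other. No mouse of the 3 lowest strains reached the background mark for Th, and they share this with others among the 39 of 95 strains that had none above it. By family of strains, Th was above the mark on 20 of 124 BXD arrays (16.1%), 19 of 73 AXB/BXA arrays (26.0%), 13 of 32 CXB arrays (40.6%), 3 of 15 BXH arrays (20.0%) and 32 of 122 arrays of classical inbred strains (26.2%). Mice of 1 strain share a genotype, so these shares are given without a test.

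**Figure D2:**
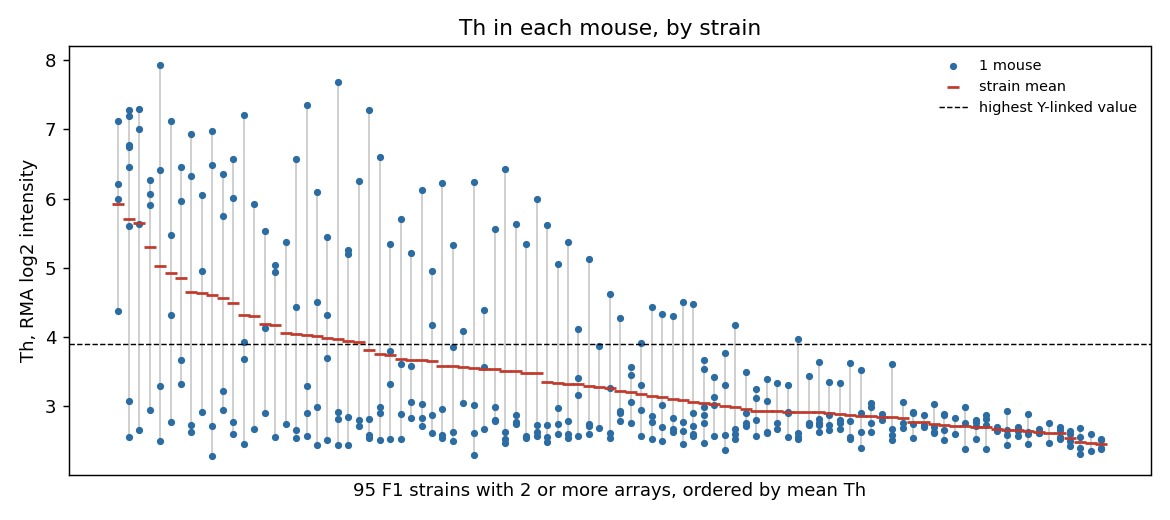
Th (RMA log2 intensity) in each mouse (points) of the 95 strains with 2 or more arrays, ordered by strain mean (red marks), with the highest Y-linked value (3.90) dashed. Most strains with a high mean also hold mice near 2.5, and 45 strains span more than 2 log2 units.

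Whether mice of a strain were more alike than mice of different strains was tested on 360 arrays of the 95 strains by limma's moderated F test, with Benjamini-Hochberg adjustment over 45037 probe sets and a threshold of 0.05. Th differed among strains (F = 1.62, adjusted p = 0.0025), as did Ddc (F = 1.503, adjusted p = 0.0094), Dbh (F = 1.54, adjusted p = 0.0062), Slc6a2 (F = 1.54, adjusted p = 0.0064), Chgb (F = 1.56, adjusted p = 0.0051), Nefl (F = 1.71, adjusted p = 8.1e-04) and Nefm (F = 1.44, adjusted p = 0.019), while Chga did not pass (F = 1.30, adjusted p = 0.068). These are 7 of 8 genes, against 77.0% of all probe sets, so the count is close to the background share. The share of variance among strains was 7.02% to 15.4% (median 12.1%) over the 8 genes and 17.9% for the median probe set, and the median F of 1.83 over all probe sets was above that of each of the 8. The spread of these genes within strains was wide, with an SD of 0.45 for Chga and 0.79 to 2.30 for the other 7, against 0.19 for the median probe set, which put every gene at or above percentile 94.3 of all probe sets.

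The calls changed when mice were left out. Leaving out the mouse numbered 1 in every strain left only Nefl past the threshold (adjusted p = 0.052 for Th), and leaving out number 3 also left Nefl alone (adjusted p = 0.11 for Th). Without number 4, Th, Chgb and Nefl passed, and without numbers 2 or 5 all 8 did. The numbers are given in order of accession and carry no meaning of their own. More strains hold a low number than a high one, so leaving out a low number removes more arrays. Strains left with 1 array then drop out too. Loss of arrays and dependence on single mice cannot be told apart here. Without the 44 arrays high in Alb, Chga and Nefm did not pass (adjusted p = 0.143 and 0.164). Chga passed the same F test with array weights (adjusted p = 0.0048) and over strains with at least 3 arrays (adjusted p = 0.043).

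Among the progenitors of the recombinant inbred sets, the C3H/HeJ F1 stood above C57BL/6J mice in the genes of the pathway. Th was 2.55, 6.60 and 7.28 (lowest, median and highest) in 8 C3H/HeJ F1 mice, and 2.46, 2.93 and 3.67 in 6 C57BL/6J mice. In 6 of the 8 C3H/HeJ F1 mice every one of the 8 genes was above every C57BL/6J mouse. The other mice, replicates 2 and 5, had Th of 3.08 and 2.55, inside the C57BL/6J range. The mean of Th was 5.71 ± 1.86 in C3H/HeJ F1 mice and 3.05 ± 0.46 in C57BL/6J mice (SD), a log2 difference of 2.66 (SE 0.61), with a limma adjusted p of 0.0066 and an exact permutation p of 0.013 (two-sided, unadjusted). All 6 C57BL/6J mice lay below the background mark in Th, so that, with those mice set at the mark, the C3H/HeJ F1 mean was at least 3.52-fold higher.

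The other enzymes of the pathway moved with Th. Dbh was 3.36, 6.88 and 7.24 in C3H/HeJ F1 mice (lowest, median and highest), against 2.97, 3.44 and 4.68 in C57BL/6J mice, a log2 difference of 2.32 (SE 0.56, limma adjusted p = 0.0094). Ddc was 2.49, 7.65 and 8.97 in C3H/HeJ F1 mice, against 2.66, 3.43 and 5.37 in C57BL/6J mice. Its difference of 3.04 (SE 0.98) did not pass after adjustment (limma adjusted p = 0.052, exact permutation p = 0.021). The noradrenaline transporter gene Slc6a2 had 3.54, 9.69 and 10.37 in C3H/HeJ F1 mice, against 3.29, 4.61 and 6.73 in C57BL/6J mice, a difference of 3.56 (SE 1.12, limma adjusted p = 0.046). Of the 6 C57BL/6J mice, 2 lay above the background mark in Dbh, 3 in Ddc and 4 in Slc6a2.

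The granins and neurofilaments were higher in the C3H/HeJ F1 as well. Chga, with means of 3.76 ± 0.63 in C3H/HeJ F1 mice and 3.01 ± 0.17 in C57BL/6J mice, differed by 0.74 (SE 0.20, limma adjusted p = 0.021), and Chgb, with 5.09 ± 1.44 in C3H/HeJ F1 mice and 3.18 ± 0.47 in C57BL/6J mice, differed by 1.91 (SE 0.48, limma adjusted p = 0.013). Nefl averaged 5.39 ± 2.02 in C3H/HeJ F1 mice and 2.63 ± 0.52 in C57BL/6J mice, a difference of 2.76 (SE 0.69, limma adjusted p = 0.012). Nefm averaged 4.25 ± 1.49 in C3H/HeJ F1 mice and 2.62 ± 0.23 in C57BL/6J mice, a difference of 1.63 (SE 0.45, limma adjusted p = 0.022). All 6 C57BL/6J mice lay below the background mark in Chga, Nefl and Nefm, and 1 lay above it in Chgb. With those mice set at the mark, the C3H/HeJ F1 mean was at least 2.82-fold higher for Nefl and 1.28-fold for Nefm. Both means of Chga lay below the mark, with 3 of 8 C3H/HeJ F1 mice above it, so no fold was taken. In all, 7 of the 8 genes passed, each higher in the C3H/HeJ F1, where 3.85% of all probe sets were called higher and 4.98% lower. The exact permutation p of the 8 genes lay between 0.012 and 0.025 before adjustment.

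The calls near the threshold depended on single mice and on the processing. Slc6a2 no longer passed when any of the 6 high C3H/HeJ F1 mice was left out, or C57BL/6J replicate 2, 3, 4 or 6 (adjusted p between 0.068 and 0.11), whereas Ddc passed without C3H/HeJ replicate 2 or 5 or C57BL/6J replicate 1 or 5. Without the arrays high in Alb, 5 genes passed, and Slc6a2, Ddc and Nefm had adjusted p of 0.055, 0.058 and 0.054. With trended and robust moderation Slc6a2 did not pass (limma adjusted p = 0.072). Ddc passed with array weights (limma adjusted p = 0.020), with quantile normalisation (0.047) and with the spread shared over all strains (0.045). It also passed in the brighter part of the probe sets (0.033), where its high arrays lift its mean (4.17, median 2.92). With its probe sets averaged (0.044) it passed as well, although the second one ran only from 2.20 to 3.10. These settings do not replace the main test, in which Ddc did not pass.

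The other progenitors were not called different from C57BL/6J in any of the 8 genes, with no gene under 0.05 by limma before adjustment or by exact permutation either. In these contrasts 4.83% of all probe sets were called for the A/J F1, 6.98% for the BALB/cJ F1 and 3.49% for the DBA/2J F1. Th was 5.53, 2.90 and 4.13 in the 3 A/J F1 mice, 2.92, 2.79, 2.89 and 4.27 in the 4 BALB/cJ F1 mice, and 2.73, 2.81, 2.63, 2.76 and 3.63 in the 5 DBA/2J F1 mice. The log2 difference from C57BL/6J was 1.14 (SE 0.80) in the A/J F1, 0.17 (SE 0.73) in the BALB/cJ F1 and -0.14 (SE 0.68) in the DBA/2J F1. The A/J F1 had 2 of 3 mice above every C57BL/6J mouse in Th, Ddc, Slc6a2, Chga, Nefl and Nefm, with differences over the 8 genes from 0.29 to 2.27 and exact permutation p from 0.071 to 0.357. With standard errors of this size, these groups are not shown to be alike.

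**Figure D3:**
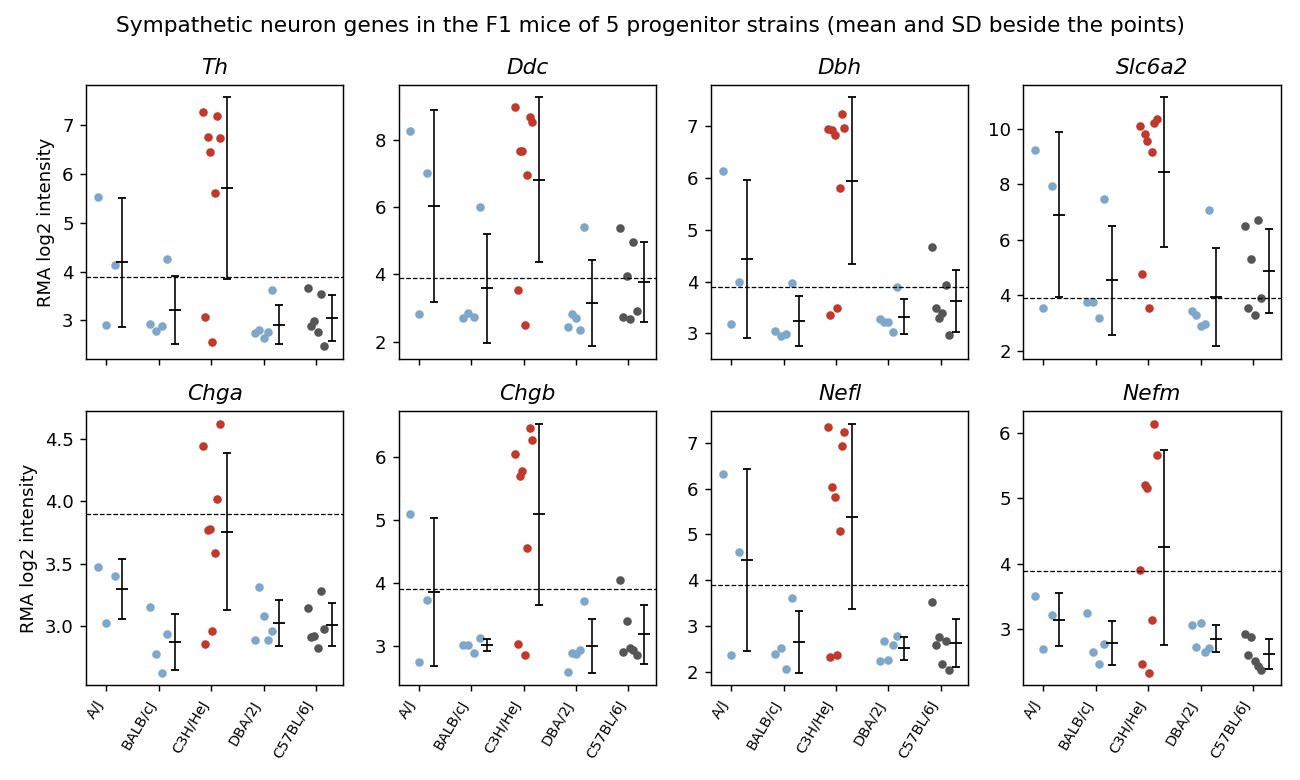
RMA log2 intensity of each of the 8 genes in every F1 mouse (points) of A/J, BALB/cJ, C3H/HeJ, DBA/2J and C57BL/6J, with the mean and SD beside the points and the background mark of 3.90 dashed. In each panel 6 of the 8 C3H/HeJ points lie above all C57BL/6J points and 2 lie low.

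Genes listed for other cell types were also called in this contrast, where 3.85% of all probe sets were called higher and 4.98% lower. A list with 1 gene called is not set apart from those shares. The lists were chosen with earlier results of these data known, and the part of other cell types in the contrast was not tested. Of 8 smooth muscle genes, 7 were called higher in the C3H/HeJ F1 (median difference 1.61), with array means of 7.73 to 9.04 in C3H/HeJ F1 mice and 5.53 to 8.02 in C57BL/6J mice. Of 10 endothelial genes 4 were higher (array means of 7.25 to 7.94 in C3H/HeJ F1 mice and 6.42 to 7.57 in C57BL/6J mice), as were 3 of 16 Schwann and satellite glia genes. Of 10 fibroblast genes 3 were called lower (array means of 6.73 to 7.20 in C3H/HeJ F1 mice and 6.81 to 7.49 in C57BL/6J mice), as were 2 of 7 adipocyte genes (10.15 to 10.65 in C3H/HeJ F1 mice and 10.41 to 10.75 in C57BL/6J mice). Of 10 macrophage genes 1 was lower (6.08 to 6.88 in C3H/HeJ F1 mice and 6.43 to 7.68 in C57BL/6J mice), as was 1 of 9 hepatocyte genes (3.31 to 3.67 in C3H/HeJ F1 mice and 3.66 to 4.42 in C57BL/6J mice). None of 10 striated muscle genes passed by limma, and none was under 0.05 before adjustment (median difference -2.29, array means of 3.25 to 12.0 in C3H/HeJ F1 mice and 5.68 to 10.5 in C57BL/6J mice). Among neuronal lists, 20 of 28 pan-neuronal genes (median 1.12) and 11 of 18 other noradrenergic and ganglionic genes (median 0.98) were called higher and none lower, where the median over all probe sets was -0.02. The 3′ minus 5′ control signal of Gapdh, a measure of RNA integrity, had a median of 0.23 in C3H/HeJ F1 mice and 0.41 in C57BL/6J mice, and that of Actb 1.08 in C3H/HeJ F1 mice and 1.30 in C57BL/6J mice.

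Within strains, the genes moved as a block. Each probe set was regressed on Th with strain as a term, over the same 360 arrays, so that mice were compared only with mice of their own genotype. All 7 other genes rose with Th, where 3.88% of 45036 probe sets were called higher and 0.471% lower. For each log2 unit of Th, Slc6a2 rose by 1.66 (SE 0.047), Ddc by 1.45 (SE 0.032), Nefl by 1.05 (SE 0.016), Dbh by 0.83 (SE 0.014), Chgb by 0.64 (SE 0.014), Nefm by 0.55 (SE 0.020) and Chga by 0.31 (SE 0.011), with a largest limma adjusted p of 3.9e-76. The probe set shared by Slc18a2 and Pdzd8 rose by 1.00 (SE 0.015). The median coefficient over all probe sets was -0.003.

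All 7 genes passed on both sides of the background mark. Among 49 arrays of 20 strains with Th above the mark, the 7 coefficients ran from 0.39 for Chga to 0.94 for Nefl (largest limma adjusted p 2.7e-04), where 1.29% of probe sets were called higher. Among 266 arrays of 85 strains at or below it, they ran from 0.19 for Chga to 3.21 for Slc6a2 (largest adjusted p 0.014), where 0.429% were called higher. For Slc6a2 and Ddc the coefficients were 3.21 and 2.40 below the mark, and 0.80 and 0.78 above it. The difference between the ranges was not tested.

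**Figure D4:**
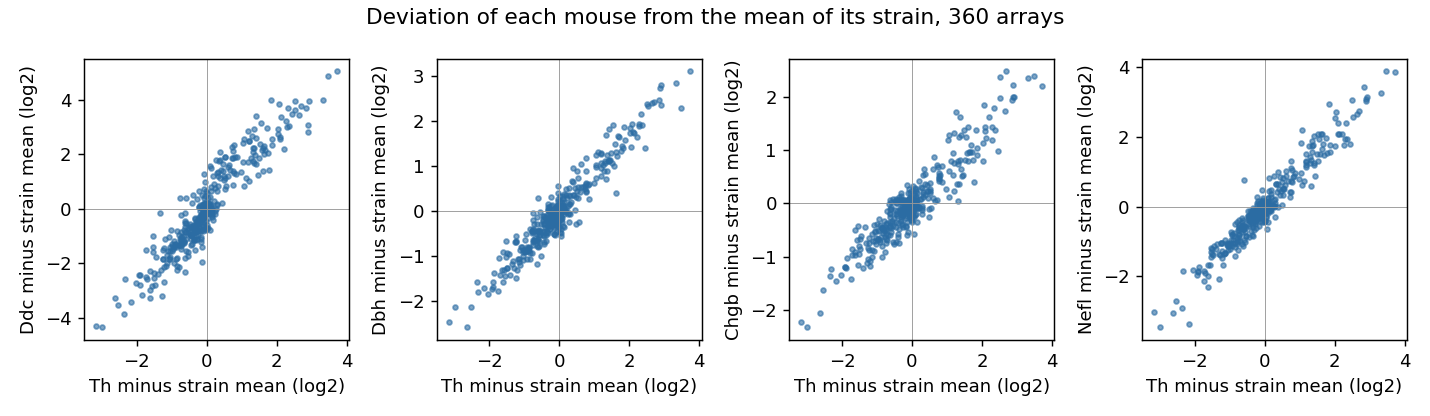
Deviation of Ddc, Dbh, Chgb and Nefl (log2, vertical) and of Th (log2, horizontal) from the mean of the strain, for 360 arrays (points). All clouds rise along the diagonal, and Ddc climbs most steeply around 0.

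Pairwise, the strain-centred values of the 8 genes had Pearson r from 0.765 (Slc6a2 with Nefm) to 0.974 (Slc6a2 with Ddc) and Spearman rho from 0.742 to 0.964 over 360 arrays. All 28 pairs had a permutation p of 1e-05, the smallest that 100000 permutations can give, before and after adjustment over the pairs. Without the 2 arrays farthest from the median, r lay between 0.756 and 0.973.

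The genes most like Th were ranked by Pearson r of strain-centred values over the same arrays. Among 17096 other genes, Prph (r = 0.972), the intermediate filament peripherin of peripheral neurons, came first, followed by the synaptotagmin gene Syt4 (0.970), Nefl (0.969), Rtn1 (0.965), the SNARE gene Snap25 (0.965), the neuronal tubulin gene Tubb3 (0.965), Slc10a4 (0.964), Dbh (0.963), Elavl2 (0.962) and Bex2 (0.958). Of the genes studied here, Nefl stood at rank 3, Dbh at 8, Ddc at 24, Chgb at 25, Slc6a2 at 38, Nefm at 60 and Chga at 67. In all, 151 genes had r above 0.7 with Th, 280 had r above 0.5, and none was below -0.5. The closest genes to Dbh were Th, Prph, Rtn1, Syt4, Slc10a4, Uchl1, Tubb3, Nefl, Ngfr and Snap25, and those to Nefl were Th, Tubb3, Prph, Syt4, Elavl2, Rtn1, Snap25, Slc10a4, Gap43 and Npy.

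Read by 1 probe set per gene, 4.93% of 17096 genes were called higher with Th, with a median coefficient of -0.003. The lists below were chosen with earlier results of these data known, so their counts describe these data and are not independent support. All 28 pan-neuronal genes rose with Th (median coefficient 0.42), led by Syt1 (1.36), the calcium sensor of transmitter release, Snap25 (1.20), Stmn3 (1.16) and Syt4 (1.09). Of 18 other noradrenergic and ganglionic genes, 16 rose (median 0.30), among them Npy (1.52), the cotransmitter of sympathetic neurons, Scg5 (0.86), Ngfr (0.74), the p75 neurotrophin receptor, and Scg2 (0.69), another granin. Of 8 transcription factors of noradrenergic identity, Isl1 (0.43), Phox2a (0.27), Gata2 (0.11) and Gata3 (0.07) rose. Gata3 had no value over 3.83, under the background mark. Hand1, Hand2, Tlx3 and Insm1 did not pass and also stayed below the mark on every array, and the median of that list was 0.04.

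Markers of other nerve cells moved in part. Of 16 Schwann and satellite glia genes 9 rose (median 0.04), led by Fabp7 (0.95), a lipid-binding protein of satellite glia, Mal (0.28), Mbp (0.22), the myelin basic protein, and Kcna1 (0.13). Of 9 sensory neuron genes 2 rose, Avil (0.50) and the sodium channel gene Scn9a (0.27), while the nociceptor channel gene Scn10a did not pass and had no array above the mark (highest 3.83). Of 3 cholinergic genes, the neuropeptide gene Vip rose (0.93), and the acetylcholine vesicle transporter gene Slc18a3 (highest 3.24) and the choline transporter gene Slc5a7 (highest 2.85) stayed under the mark. Of 6 adrenal medulla genes, only Chgb, Cyb561 (0.61) and Chga rose. Pnmt, which makes adrenaline from noradrenaline and marks the adrenal medulla, had a coefficient of -0.0005 and no value over 2.95.

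Of the lists of the vessel wall and other tissues, none passed by limma of 8 smooth muscle genes (median -0.02), 10 endothelial genes, 9 adrenal cortex genes, 7 adipocyte genes, 8 brown adipocyte genes, 9 hepatocyte genes, 8 neurotrophic factor genes or 2 adrenoceptor genes. At an unadjusted p under 0.05, these lists had 0, 1, 0, 0, 0, 0, 1 and 1 genes in that order. Mrc1, a mannose receptor of macrophages, fell by 0.05 per log2 unit of Th as 1 of 10 macrophage genes, and Col1a1, a collagen gene, and Dpt fell by 0.07 and 0.04 as 2 of 10 fibroblast genes, where 0.526% of all genes were called lower. At an unadjusted p under 0.05, 4 of the macrophage and 6 of the fibroblast genes were lower with Th and none was higher. The 10 striated muscle genes had a median coefficient of 0.35 and none passed, although 7 were under 0.05 before adjustment. Acta1, the skeletal actin gene, had the largest of these coefficients at 0.41 (SE 0.16, limma adjusted p = 0.183). The part of muscle RNA in the relation was not tested.

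**Figure D5:**
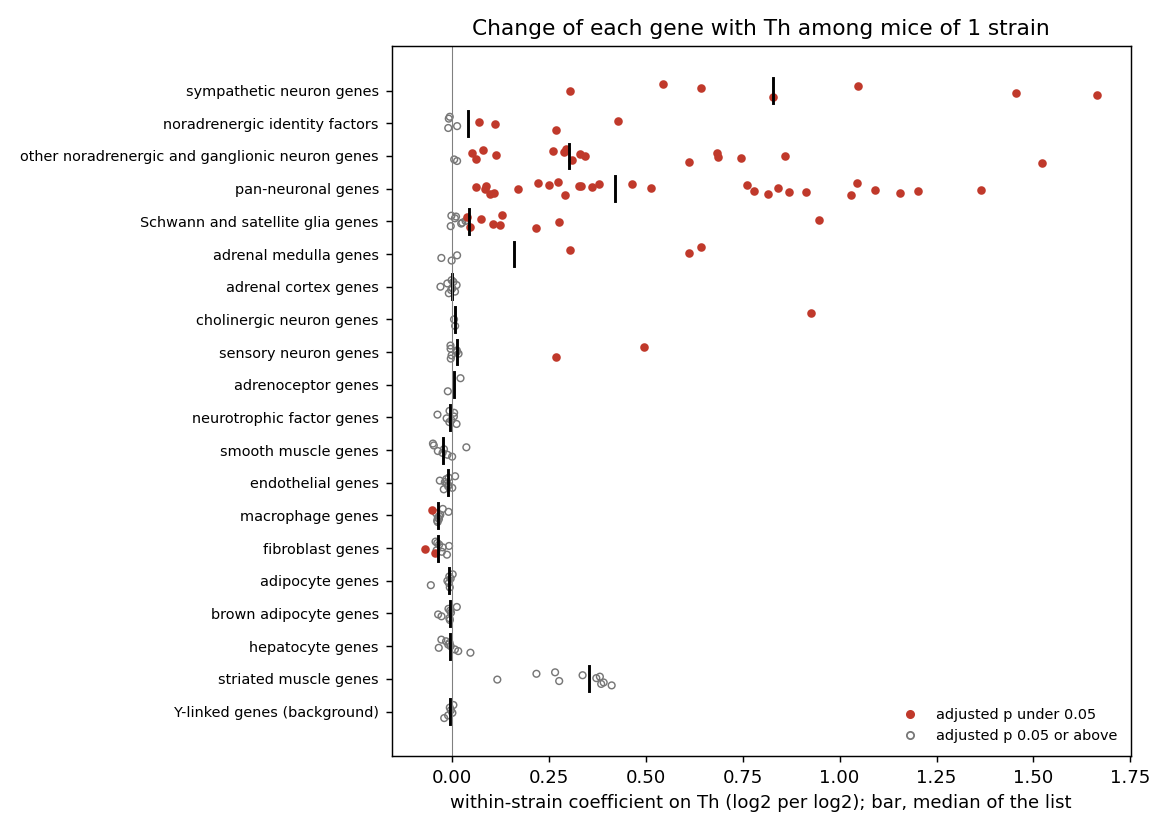
Change of each gene per log2 unit of Th among mice of the same strain (horizontal, log2 per log2; points, red where the limma adjusted p was under 0.05), by gene list, with the median of each list as a bar. The sympathetic and pan-neuronal rows lie to the right of 0 with every gene past the threshold, the smooth muscle and endothelial rows lie near 0 with none past it, and the striated muscle row lies right of 0 with none past it.

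RNA integrity measures and the main axis of variation were set against Th. The strain-centred 3′ minus 5′ signal of Gapdh had r = 0.003 (permutation p = 0.954) and rho = 0.01 (permutation p = 0.818) with Th, and that of Actb r = 0.03 (permutation p = 0.566) and rho = 0.04 (permutation p = 0.460), over 360 arrays, with r of 0.01 for Gapdh and 0.04 for Actb without the 2 farthest arrays; these p-values are unadjusted. The first principal component of the differences within strains held 17.6% of the variation, and its scores had an absolute r of 0.11 with Th.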

How the data were processed

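RNA of each aorta was hybridised to its own Affymetrix array, named HT_MG-430A in the labels and HT-MG_430 PM in the paper. The authors processed the scans with GCOS and RMA and deposited log2 intensities (versions not given in the sources used here). Every array column was matched to its strain by label, with 1 array per mouse, so p-values measure the spread between mice. Of 45141 probe sets, 104 control probe sets were left out and 45037 were tested. Gene names came from the platform annotation (28898 probe sets with 1 symbol, 551 with several, 15692 with none) and positions from RefSeq for GRCm38.p6. Listed genes that lack a probe set of 1 symbol were left out of the counts. A probe set of several symbols may still name such a gene, as for Slc18a2.

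Tests used limma 3.58.1 in R 4.3.3 with lmFit, eBayes and Benjamini-Hochberg adjustment at 0.05: an F test over strains with 2 or more arrays, 4 progenitor contrasts fitted on the 5 progenitor groups alone, and a regression on Th with strain as a term. Permutation tests used scipy 1.17.1. The scripts were tested on simulated data. Named genes were the 9 listed, the 10 genes most correlated with Th, Dbh and Nefl, the 3 highest and 3 lowest strains and 5 highest arrays for Th, and up to 4 genes of each list with the largest coefficient on Th; other genes named are defining markers of a list. Counts of arrays above the highest Y-linked value describe each probe set and do not rank genes by amount. The members of the gene group and the lists were chosen with earlier results of these data known. Alternatives were a filter on dim probe sets, array weights, trended robust moderation, quantile normalisation, a spread shared over all strains, strains with 3 or more arrays, removal of the first principal component, all probe sets of a gene averaged, Dbh or normal scores in place of Th, no strain term, strain means, and leaving out replicates; subsets by Th and arrays high in Alb were chosen after seeing the data.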

Additional observations from a re-analysis of the deposited data

Results flagged for a closer look

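In the 12 strains named in the report that had 4 to 8 mice, the 8 genes gave 96 groups of mice that were searched for a mouse set apart from the rest of its strain by Dixon's criterion at 95%, and 30 groups held one, in 6 strains. For normally distributed values, chance alone sets about 1 in 20 such groups apart. These genes lay near background in most mice and high in some, so that rate does not hold here. Groups of correlated genes are also not independent, so whether the count exceeds chance cannot be read from it. In the BALB/cJ F1, replicate 4 stood above the other 3 mice in Th (4.27, next 2.92), Dbh (3.97, next 3.04), Slc6a2 (7.46, next 3.77) and Ddc (6.00, next 2.85). In the DBA/2J F1, replicate 5 stood above the other 4 in Th (3.63, next 2.81), Slc6a2 (7.07, next 3.44) and Ddc (5.41, next 2.82). In the AKR/J F1, replicate 4 stood above the other 3 in Slc6a2 (4.91, next 3.07), Ddc (3.24, next 2.86) and Nefl (2.66, next 2.19). Th in that DBA/2J mouse and Ddc and Nefl in that AKR/J mouse lay under the background mark of 3.90.

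The other 20 groups lay in strains that were named because they held 1 of the 5 arrays highest in Th. A mouse set apart in Th there follows from the choice. Because the other genes moved with Th within strains, the same holds in large part for them. In the BXD6/TyJ F1, replicate 4 stood above the other 3 mice in Th (7.69, next 2.91), Dbh (7.08, next 2.96), Slc6a2 (9.89, next 3.50), Ddc (9.16, next 2.55), Chgb (5.92, next 3.17), Nefl (7.45, next 2.35) and Nefm (6.00, next 2.73). In the BXA24/PgnJ F1, replicate 3 stood above the other 3 in Th (7.35, next 3.28), Dbh (6.98, next 3.44), Chga (4.21, next 2.93), Chgb (5.98, next 3.01), Nefl (6.79, next 2.69) and Nefm (6.23, next 2.60). In the BXA14/PgnJ F1, replicate 2 stood above the other 3 in Th (7.28, next 2.82), Dbh (6.32, next 3.35), Slc6a2 (10.01, next 3.51), Ddc (9.36, next 3.05), Chga (3.93, next 2.83), Chgb (6.02, next 2.96) and Nefl (7.52, next 2.41).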

How the results depend on the processing

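The within-strain rise of all 7 genes with Th kept its direction and its call under every alternative that tested them. In the brighter part of the probe sets (mean over the median one), only Dbh, Slc6a2, Ddc and Chgb were tested, and all 4 passed. That mean includes the arrays on which these genes were high, so this setting is not an independent check. The count of probe sets called with Th was 1958, and became 1036 in that brighter part, 3107 without the strain term, 1186 over strain means, 591 above and 203 at or below the background mark in Th; leaving out replicates gave 1456 to 1963, with 7 genes called each time. For the strain F test, 21572 probe sets passed in the brighter part; leaving out the mouse of 1 number gave 29414 to 34547, and 1 to 8 of the 8 genes. Array weights called 5084 probe sets for the DBA/2J F1, and leaving out arrays high in Alb called 726 for DBA/2J and 1738 for BALB/cJ, which also holds fewer arrays. With mice left out in turn, the progenitor contrasts called 1007 to 2126 probe sets for A/J, 1969 to 3335 for BALB/cJ, 2827 to 4086 for C3H/HeJ (6 to 8 genes) and 1066 to 1719 for DBA/2J, with 0 of the 8 genes for A/J, BALB/cJ and DBA/2J.

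Differences that changed sign were uncalled. For BALB/cJ, without arrays high in Alb, Th was -0.055 and Nefl -0.12, and Nefl was -0.0092 with quantile normalisation. For DBA/2J, without those arrays, Th was 0.084, Ddc 0.050, Chga -0.0082, Chgb 0.17 and Nefl 0.099, and Nefl was 0.033 with array weights. With mice left out in turn, the difference lay between -0.039 and 1.44 for Dbh in A/J. In BALB/cJ it lay between -0.18 and 0.31 for Th, -1.30 and 0.12 for Slc6a2, -0.99 and 0.14 for Ddc, -0.24 and 0.0031 for Chgb and -0.30 and 0.22 for Nefl. In DBA/2J it lay between -0.058 and 0.069 for Chga and -0.23 and 0.065 for Nefl. The cause of these changes was not tested. No paired analysis was possible because the replicate numbers follow accession order and tie no mouse of a strain to a mouse of another. The number of mice per progenitor limits the precision of each contrast, and most values of these genes lie below the highest signal of a probe set without target.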
